A study of Sus scrofa with 67 samples.

Results

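Across the pig oestrous cycle, 170 of the 25322 genes counted went up in one of ovary and oviduct and down in the other between day 0 and day 9, while the endometrium stayed within a factor of 2. They were selected on the data themselves. Each count was divided by the total count of its library and multiplied by 1000000 (CPM). These values were averaged over the libraries of a tissue and day, 1 was added, and the day 9 value was divided by the day 0 value. A gene was kept where this ratio was at least 2 in one of the tissues, at most 0.5 in the other, and between 0.5 and 2 in endometrium. This gave 30 genes higher on day 9 in ovary and lower in oviduct (the ovary-up group) and 140 genes lower in ovary and higher in oviduct (the oviduct-up group).

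RNA came from Landrace by Yorkshire crossbred gilts, 6 to 8 months old, sampled by hysterectomy every 3 days from day 0, the onset of oestrous behaviour, to day 18, after at least 2 normal cycles. The ovary of one side was used whole, the oviduct was its ampulla, and the endometrium was freed of myometrium, so each sample mixed many cell types. The labels name no treatment. Counts were at hand for 66 of 67 labelled samples, most groups of a tissue and day holding 3 libraries. Ovary day 3 and oviduct day 6 held 2, and 4 were at hand for ovary and oviduct on days 12 and 15 and for endometrium on day 15. Per the study's methods all 3 tissues were collected from the gilts of each day, so ovary and oviduct libraries of a day share animals, but no label used here says which ones do. Tests between the tissues treated the libraries as independent, and p-values measure only the spread between these libraries, which may in part be technical.

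Day 0 is the end of the follicular phase, when oestradiol is high and follicles are about to ovulate. After ovulation the follicle wall becomes the corpus luteum, which secretes progesterone through the middle of the cycle and regresses before the next oestrus. The oviduct epithelium and wall respond to both hormones, so the ovary changes its own cell makeup while the oviduct receives its signals. In whole tissue, fewer cells of a type and less RNA per cell cannot be told apart.

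Library totals ran from 8962103 to 13442083 counts, and 3 counts, taken as the lowest detectable level, equalled 0.223 to 0.335 CPM. Marker genes separated the tissues. The oviduct glycoprotein OVGP1 reached 51296 to 168130 CPM in oviduct on day 0, and the 2 cilia genes FOXJ1 and CCDC39 summed to 1049 to 1978 CPM in oviduct over all days, against 11.4 to 44.6 CPM in all ovary libraries but 1. In the ovary day 15 library numbered 1 they summed to 288 CPM, against 16.2 to 23.8 CPM in the other 3 of that day, and OVGP1 was at 1715 CPM against 26.9 to 81.2 CPM. In the ovary day 12 library numbered 1, the 3 luteal genes found (CYP11A1, LHCGR and SCARB1) summed to 590 CPM, against 11648 to 16200 CPM in the other 3 libraries of that day and 647 to 4877 CPM on day 18. The mean correlation with their group was 0.878 for the day 12 library and 0.888 for the day 15 library, the lowest of all 66 libraries. Values of these days, and the counts of calls in ovary and between the tissues, are given or were recomputed without them.

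Scaling mattered for which genes were chosen. Over 16563 genes with at least 1 CPM in 3 or more libraries, the median log2 ratio of day 9 to day 0 was -0.27 in ovary and 0.22 in oviduct, which is the direction of the oviduct-up group. OVGP1 alone went from a mean of 120921 CPM on day 0 to 4840 CPM on day 9 in oviduct. With the libraries rescaled by TMM (trimmed mean of M-values, which fits the bulk of genes between libraries), the 2 medians became -0.07 and 0.00. The rescaling was smaller than the factor of 2 of the choice, so that all 170 genes kept both directions under TMM follows from the choice. Of the ovary-up genes 30 of 30, and of the oviduct-up genes 41 of 140, still met the limits of the choice in all 3 tissues. The median ratios then were 4.01 in ovary and 0.332 in oviduct for the ovary-up group, and 0.408 and 1.93 for the oviduct-up group.

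The ratios that chose the genes are given as a description, with no test. In the ovary-up group the ratio ranged from 2.05 to 8.50 in ovary (median 3.25) and from 0.144 to 0.498 in oviduct (median 0.381). In the oviduct-up group it ranged from 0.0568 to 0.497 in ovary (median 0.353) and from 2.001 to 5.53 in oviduct (median 2.31). The median endometrial ratios were 0.911 and 0.903. Just inside the limits were STC1, with ratios of 2.05 and 0.498, and VXN, with 0.184 and 2.001; just outside were STUM, with 2.13 and 0.512, and LMBR1L, with 0.5001 and 3.64. All day 9 libraries lay beyond all day 0 libraries in both tissues for 26 of 30 ovary-up and 92 of 140 oviduct-up genes. The same libraries chose the genes and the share over all genes was not taken, so these counts only describe the choice. When each of the 18 libraries behind the ratios was left out in turn, 149 to 212 genes qualified, and 15 ovary-up and 50 oviduct-up genes qualified in every run.

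By mean CPM, the groups exchanged their tissue of higher expression during the cycle. Of the 30 ovary-up genes, 3 had a higher mean CPM in ovary than in oviduct on day 0, and in the order of the later days, from day 3 to day 18, this number was 17, 23, 27, 28, 22 and 14. Of the 140 oviduct-up genes, 101 were higher in ovary than in oviduct on day 0, followed by 29, 5, 5, 13, 39 and 88. Without the ovary day 12 library numbered 1, the day 12 counts were 27 and 8, and without the ovary day 15 library numbered 1 those of day 15 were 21 and 40. By day 18 both groups had therefore moved back towards the order of day 0. The day 0 and day 9 counts follow in part from the choice of the genes, and the other days do not enter it. Counts over all genes were not taken, and none were redone under TMM. On day 9 the TMM factors were 0.72 to 0.83 in ovary and 1.08 to 1.13 in oviduct, so CPM sets ovary lower against oviduct than TMM would. On day 0 they were 0.92 to 0.99 and 0.85 to 0.99.

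**Figure D1:**
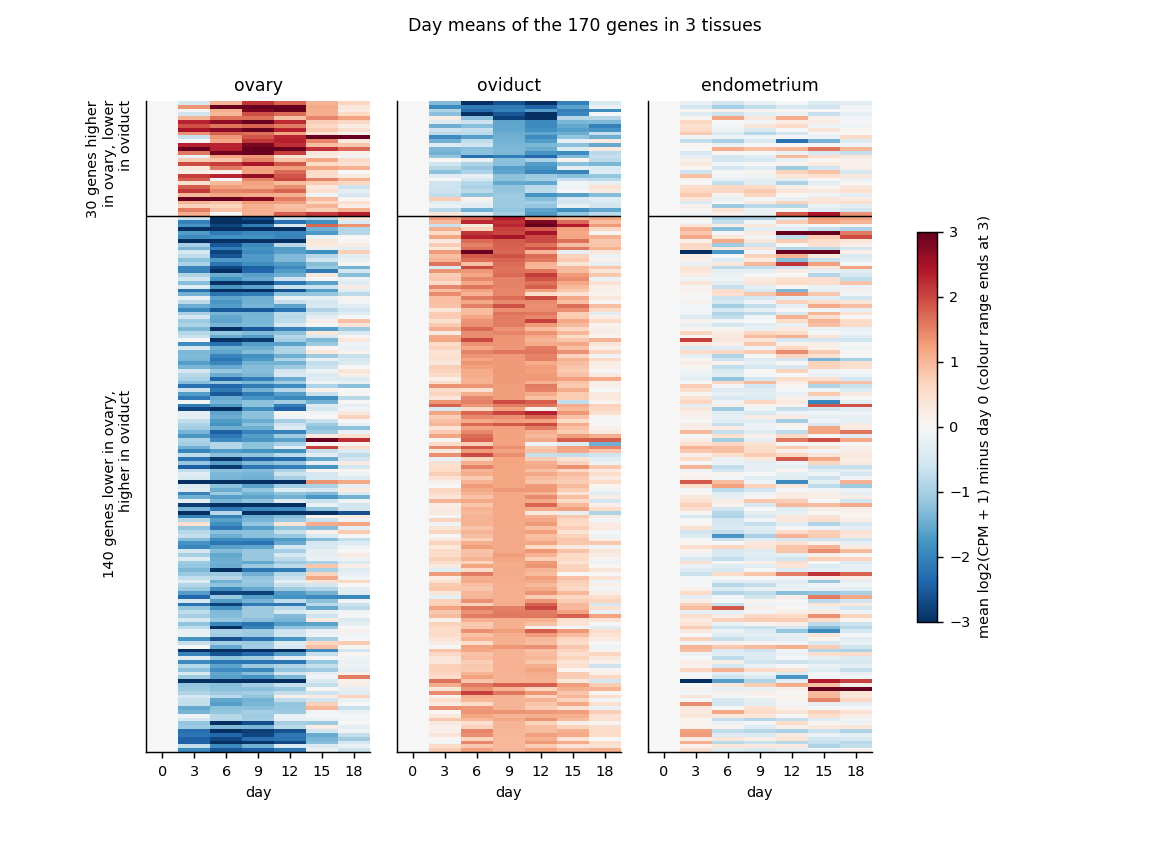
Each row is 1 of the 170 genes and each column 1 day, for ovary, oviduct and endometrium; colour is the mean log2(CPM + 1) of the day minus that of day 0 in the tissue. Most of the 30 ovary-up genes (top) are red in ovary and blue in oviduct from day 3 to day 12 and most of the 140 oviduct-up genes (bottom) are the reverse, with the most exceptions on day 3 (4 ovary-up genes in each tissue, and 2 oviduct-up genes in ovary and 12 in oviduct, on the other side of day 0), and most rows return towards white by day 18.

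The course outside the chosen days was followed in each tissue. On the log2(CPM + 1) scale, the median ovary-up gene had covered 78.4% of its day 0 to day 9 distance in ovary by day 3, against 49.4% in oviduct. For the oviduct-up group these values were 70.5% in ovary and 47.9% in oviduct. On day 6 the median oviduct-up gene stood at 111% of that distance in ovary and 89.8% in oviduct. On day 12 the ovary-up group stood at 88.3% in ovary and 113% in oviduct, and the oviduct-up group at 72.8% and 96.9%. The ovary values of day 12 depended on library 1: without it they were 98.9% and 111% for the ovary-up and oviduct-up groups. On day 15 the ovary was further back, at 43.1% and 33.4% for the ovary-up and oviduct-up groups, than the oviduct, at 77.4% and 63.5%. Without the ovary day 15 library numbered 1 its values were 46.5% and 42.5%. On day 18 the 4 medians ran from 11.5% to 49.5%. Ovary day 3 and oviduct day 6 had 2 libraries each, so these medians are descriptions. They rest on CPM from library totals and were not redone under TMM. OVGP1 ran from 15703 to 203311 CPM in the oviduct libraries of day 3. Its part in the oviduct values of that day was not tested.

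For each library, the mean log2(CPM + 1) over a group was set against the mean of the day 18 libraries of its tissue. In the ovary-up group this level was -0.11 in ovary day 12 library 1 and 1.21, 1.35 and 1.65 in the other day 12 ovary libraries. In the oviduct-up group it was 0.01 in that library and -1.57, -1.55 and -1.68 in the others. Library 1 therefore lay within the range of the 3 day 18 ovary libraries, which was -0.34 to 0.52 for the ovary-up group and -0.38 to 0.43 for the oviduct-up group. In oviduct, the 4 day 12 libraries were at -1.19 to -0.44 for the ovary-up group and 0.96 to 1.05 for the oviduct-up group, and neither range overlapped that of day 18 (-0.30 to 0.49 and -0.25 to 0.43). In endometrium all libraries of both groups lay between -0.32 and 0.38.

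**Figure D2:**
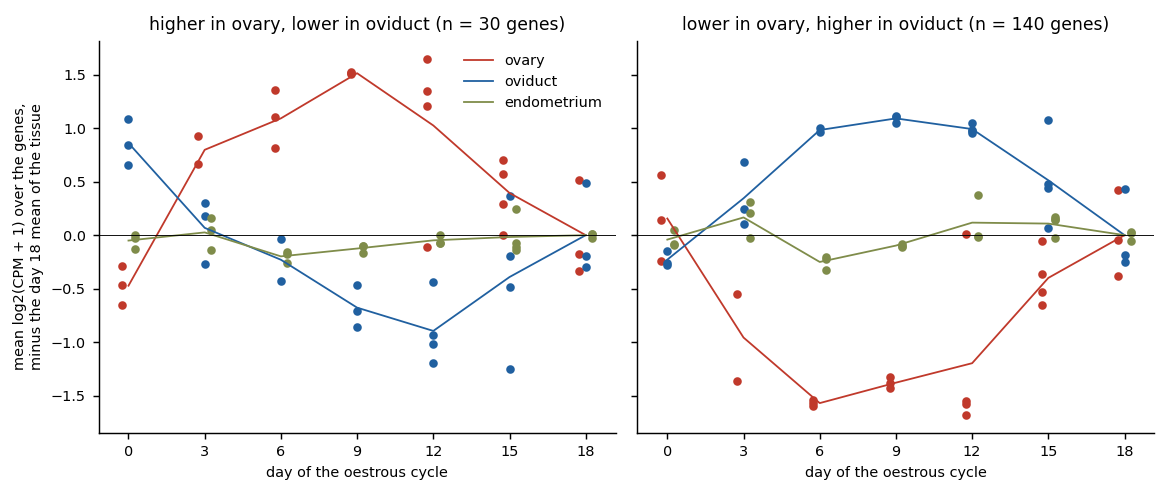
Points are libraries and lines are day means of the mean log2(CPM + 1) over the 30 ovary-up genes (left) and the 140 oviduct-up genes (right), minus the day 18 mean of the tissue, against day of the cycle. The means of ovary (red) and oviduct (blue) lie apart from day 3 to day 15, and in the reverse order on day 0. The 1 ovary library of day 12 at -0.11 and 0.01 stands with the day 18 libraries.

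Days 6, 12 and 18 were not used to choose the genes, so the contrast was tested there: the luteal days 12 and 6 were each compared with day 18, when the next follicular phase had begun. The edgeR quasi-likelihood test was fitted to all genes that passed a filter on low counts, and a gene was called at a Benjamini-Hochberg adjusted p under 0.05. All 170 genes passed the filter in ovary and in oviduct. Both comparisons use the same day 18 libraries and are not independent of each other. The spread behind the calls was estimated over all days, so the day 0 and day 9 libraries that chose the genes enter it. The question of opposite movement is addressed most directly by the difference of the tissue changes, the log2 fold change in ovary minus that in oviduct, fitted in 1 model over both tissues.

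Between days 12 and 18 the difference had the direction of the choice in 168 of 170 genes and was called in 87, with 0 calls in the opposite direction. Of the ovary-up group, 17 of 30 genes were called (56.7%), where 9.92% of 16601 genes tested were called higher. Of the oviduct-up group, 70 of 140 were called (50%), where 6.67% of genes were called lower. The median difference was 2.63 on the log2 scale in the ovary-up group, -1.92 in the oviduct-up group and -0.04 over all genes tested. Without the ovary day 12 library numbered 1, 131 genes were called (23 and 108). Over all 16588 genes then tested, 2259 were called higher and 2040 lower, against 1647 and 1107 with all libraries. Without the ovary day 18 library numbered 3, 54 were called, with 1071 higher and 636 lower over all 16591 genes. With a fit to only the groups compared, 33 were called, with 430 higher and 203 lower over all 15502 genes. With ovary and oviduct libraries of like day and number treated as pairs, 59 were called. Over all 16601 genes, 1110 were then called higher and 799 lower.

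Between days 6 and 18 the difference had that direction in 164 of 170 genes and was called in 93. The ovary-up group had 9 calls (30%, against 9.83% of all genes called higher), and the oviduct-up group 84 (60%, against 8.74% called lower). The medians were 1.81 and -2.48, with -0.16 over all genes. With libraries of like day and number treated as pairs, 47 were called. Over all 16601 genes, 986 were then called higher and 574 lower, against 1632 and 1451 without pairs. Without the ovary day 18 library numbered 3, 70 were called, with 1181 higher and 909 lower over all 16591 genes. Leaving out either oviduct day 6 library left 1 oviduct library on that day. The medians were then 1.67 and -2.39 without that numbered 3, and 2.04 and -2.46 without that numbered 2.

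**Figure D3:**
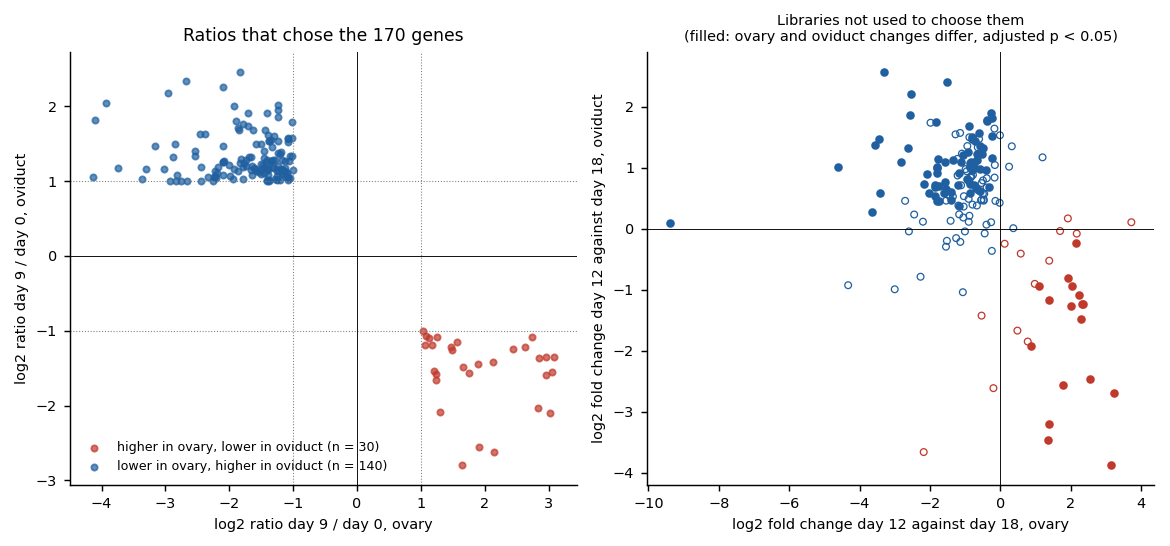
Left, log2 ratio of day 9 to day 0 in oviduct against ovary for the 170 genes, with dotted lines at the factor of 2 that chose them. Right, log2 fold change of day 12 against day 18 in the same tissues, from libraries that had no part in the choice. The 87 filled points are genes whose changes differed between the tissues, by a test whose spread was estimated over all days, days 0 and 9 included. Most points keep to their quadrant.

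Within single tissues fewer genes were called, and no call went against the direction of the choice. In oviduct, 13 of 30 ovary-up genes were lower on day 12 than on day 18 (43.3%, against 13.4% of 15665 genes), and 59 of 140 oviduct-up genes were higher (42.1%, against 8.98%). The median log2 fold changes were -1.24 and 0.81, with 0.00 over all genes. Without the oviduct day 18 library numbered 2, 31 of these 72 genes were still called and no others, and without that numbered 3, 45 were still called and no others. Over all genes tested, 3505 were called with all libraries, and 1014 and 3262 in these runs, in that order. Between days 6 and 18 the oviduct had 4 lower ovary-up genes (13.3%, against 4.17%) and 11 higher oviduct-up genes (7.86%, against 1.3%). These 15 calls fell to 0 without the oviduct day 18 library numbered 2, where no gene was called over all genes tested. They came to 43 without that numbered 1, where 2424 genes were called against 857 with all libraries. Leaving out either day 6 library left 1. The median log2 fold changes were then -0.99 or -0.24 in the ovary-up group and 0.65 or 0.68 in the oviduct-up group, against -0.58 and 0.69 with all libraries.

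In ovary, 9 of 30 ovary-up genes were higher on day 12 than on day 18 (30%, against 2.31% of 15638 genes) and 3 of 140 oviduct-up genes were lower (2.14%, against 0.62%). These 12 calls were lost, to 0, when any 1 of the other 6 libraries of days 12 and 18 was left out, and no gene was then called over all genes tested. Without the ovary day 12 library numbered 1, all 12 were still called and the counts rose to 19 and 66, with 1 ovary-up gene called lower. Over all 15582 genes then tested, 1889 were called higher and 1535 lower. The median log2 fold changes were 1.74 and -0.94 with all libraries and 2.11 and -1.53 without that library, and -0.03 over all genes. Between days 6 and 18, 11 ovary-up genes were higher in ovary (36.7%, against 7.37%) and 37 oviduct-up genes were lower (26.4%, against 5.16%). These 48 calls became 6 without the ovary day 18 library numbered 3 and 12 or 13 without any 1 of the day 6 libraries. They became 80 without the ovary day 12 library numbered 1, which enters this comparison only through the spread shared by all days. Over all genes tested, 1959 were called with all libraries and 177 without the day 18 library numbered 3. Without 1 day 6 library 471 to 763 were called, and without the day 12 library numbered 1, 3112. With all libraries, 4 of the 170 genes were called in both tissues between days 12 and 18 (2.35%, against 0.841% of the 14754 genes tested in both) and 2 between days 6 and 18 (1.18%, against 1.31%).

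**Figure D4:**
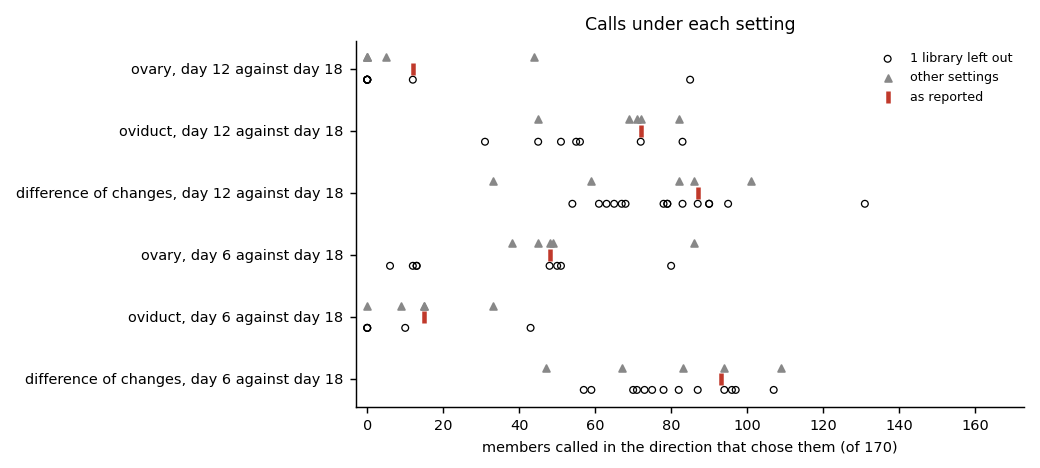
For each of the 6 comparisons, the bar marks the number of the 170 genes called in the direction that chose them, circles the number with 1 library left out, and triangles the number under other settings. The ovary comparison of day 12 with day 18 runs from 0 to 85 calls with 1 library left out, while the difference of the tissue changes runs from 54 to 131.

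The endometrium entered the choice only by its day 9 to day 0 ratio. Taken over both directions, the share of members called there on days 12 and 6 against day 18 was near that over all genes. Split by direction, the oviduct-up genes exceeded the share over all genes for higher on day 12 and for lower on day 6. Of 162 genes tested there (the other 8 failed the filter), 41 were called between days 12 and 18 (25.3%, against 20.2% of 15341 genes), and 40 between days 6 and 18 (24.7%, against 23.5%). On day 12, 26 of 137 oviduct-up genes were higher (19.0%, against 10.8% of all genes) and 12 lower (8.76%, against 9.43%), and of 25 ovary-up genes 1 was higher and 2 were lower. On day 6, 14 oviduct-up genes were higher (10.22%, against 11.7%) and 23 lower (16.8%, against 11.8%), and 3 ovary-up genes were higher.

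Single genes were named by the smaller of their 2 log2 ratios, the first 10 with a symbol in each group. Over these 20 genes and both comparisons, 22 of 40 differences were called. Over all genes tested, 9.92% were called higher and 6.67% lower on day 12, and 9.83% and 8.74% on day 6. These genes were named for their large ratios, and both comparisons share the day 18 libraries, so the 40 are not independent results. OLFM3, a secreted glycoprotein of the olfactomedin family, came first among the ovary-up genes with a symbol. In ovary it measured 2.51, 5.67 and 7.23 CPM on day 0 and 57.3, 72.2 and 17.8 on day 9, then 35.9, 71.8 and 185 on day 6, 6.62, 17.1, 28.4 and 145 on day 12 and 4.98, 8.96 and 6.31 on day 18. Oviduct values were 23.9, 15.6 and 40 CPM on day 0, 10, 4.65 and 1.51 on day 9, 7.77, 2.12, 3.32 and 3.62 on day 12 and 4.78, 14.6 and 50.9 on day 18. The day 6 and day 18 ovary libraries did not overlap, whereas the oviduct libraries of day 12 and day 18 did. The ovary change minus the oviduct change was 5.89 ± 1.34 (SE), adjusted p = 0.00367 between days 12 and 18, and 6.54 ± 1.60 (SE), adjusted p = 0.00533 between days 6 and 18.

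FBLN2, an extracellular matrix protein of the fibulin family, was called in oviduct on days 12 and 6 and in ovary on neither. It measured 537, 399 and 474 CPM in oviduct on day 0, 85.5, 103 and 49 on day 9, 34.3, 42.1, 38.2 and 86.2 on day 12 and 175, 683 and 493 on day 18. Ovary values were 25.4, 86.3 and 28.3 CPM on day 0, 144, 153 and 235 on day 9, 41.5, 151, 190.0 and 223 on day 12 and 134, 24.2 and 53.6 on day 18. All day 12 oviduct libraries were below all day 18 libraries, and the ovary libraries of these days overlapped. The difference was 4.76 ± 0.97 (SE), adjusted p = 0.00165 on day 12 and 4.15 ± 1.12 (SE), adjusted p = 0.0104 on day 6. The day 6 call was lost without either oviduct day 6 library (adjusted p = 0.051 and 0.0711).

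ENPEP, the aminopeptidase that cleaves angiotensin II, was called in both tissues between days 12 and 18. In ovary it measured 6.04, 33.6, 26.4 and 26.9 CPM on day 12 and 5.8, 5.41 and 4 on day 18, so that library 1 was the lowest of day 12 yet above all of day 18. In oviduct it measured 6.88, 5.91, 3.86 and 3.52 CPM on day 12 and 17, 36.8 and 14.3 on day 18, with no overlap. The difference was 4.98 ± 0.91 (SE), adjusted p = 0.000683. On day 6 it was 2.68 ± 1.005 (SE), adjusted p = 0.0588, which did not pass, though it passed without the ovary day 12 library numbered 1 (adjusted p = 0.0319), the ovary day 6 library numbered 1 (0.0363) or the oviduct day 18 library numbered 1 or 3 (0.0469 and 0.0454).

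AOX1, aldehyde oxidase, and ITPR1, the calcium channel of the endoplasmic reticulum that opens on inositol trisphosphate, were called in ovary on days 12 and 6 and in oviduct on neither. AOX1 measured 175, 257 and 320.5 CPM in ovary on day 6, 276, 266 and 229.7 on day 9, 39.1, 118, 127 and 281 on day 12 and 20.6, 59.6 and 29.1 on day 18, and 8.56, 10, 9.65 and 8.4 CPM in oviduct on day 12 and 4.05, 7.73 and 44.6 on day 18. Its difference was 3.56 ± 0.89 (SE), adjusted p = 0.00686 on day 12 and 3.82 ± 1.03 (SE), adjusted p = 0.0104 on day 6. Both calls were lost without the oviduct day 18 library numbered 3 (adjusted p = 0.0914 and 0.082), the one at 44.6 CPM, and the day 6 call also without the oviduct day 6 library numbered 3 (adjusted p = 0.0713). With only the groups compared, neither passed (adjusted p = 0.066 and 0.0557).

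ITPR1 measured 11.2, 13.1 and 11.3 CPM in ovary on day 0, 68.1 and 73.5 on day 3, 59, 86.3 and 104 on day 6, 121, 108 and 88.9 on day 9, 16.3, 49.5, 73.7 and 112 on day 12 and 22.9, 13.8 and 15.6 on day 18. Its ovary libraries of days 3, 6 and 9 were all above those of days 0 and 18. In oviduct it went from 32.4, 64.4 and 37.9 CPM on day 0 to 20.1, 10.16 and 13.6 on day 9, and stood at 18.2, 3.39 and 16.1 on day 18. The difference was 2.35 ± 0.66 (SE), adjusted p = 0.0146 on day 12, which did not pass with only the groups compared (adjusted p = 0.126). On day 6 it was 1.62 ± 0.75 (SE), adjusted p = 0.124, which did not pass.

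ST6GALNAC4, a sialyltransferase of the Golgi, was called in oviduct on days 12 and 6. In ovary it measured 160.0, 286 and 244 CPM on day 6, 58.5, 119, 78.3 and 290.2 on day 12 and 131, 51.4 and 88.4 on day 18. The oviduct held 48.6 and 54.7 CPM on day 6, 57.2, 37.9, 51.9 and 49.2 on day 12 and 113, 179.6 and 176 on day 18. In each tissue the libraries of days 6 and 18 did not overlap. The difference was 2.75 ± 0.69 (SE), adjusted p = 0.00706 on day 12 and 3.49 ± 0.81 (SE), adjusted p = 0.00366 on day 6, the former lost with only the groups compared (adjusted p = 0.0607).

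The remaining 4 of the 10 ovary-up genes had no called difference. They were SLC38A11, of the family of sodium-coupled amino acid transporters, ADAMTS14, a procollagen proteinase, ANO1, a chloride channel opened by calcium, and CNTN1, an adhesion molecule of the contactin family. The difference on day 12 was 3.58 ± 1.32 (SE), adjusted p = 0.0586 for SLC38A11, 1.69 ± 0.82 (SE), adjusted p = 0.151 for ADAMTS14, 2.11 ± 0.93 (SE), adjusted p = 0.113 for ANO1 and 1.89 ± 0.94 (SE), adjusted p = 0.164 for CNTN1. Without the ovary day 12 library numbered 1, the first 3 passed (adjusted p = 0.0179, 0.0402 and 0.0353). SLC38A11 also passed without the oviduct day 18 library numbered 2 (adjusted p = 0.0421), and ANO1 without the ovary day 18 library numbered 1 (adjusted p = 0.0258). CNTN1 on day 6 was at -0.97 ± 1.06 (SE), adjusted p = 0.55, against the direction of the choice.

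In the oviduct-up group, GATM makes the precursor of creatine and catalyses the committed step of its synthesis. In ovary it measured 107, 38.4 and 8.14 CPM on day 0, 3.91, 3.49 and 4.7 on day 6, 6.6, 6.1 and 4.49 on day 9, 26.8, 3.27, 3.59 and 6.13 on day 12 and 15.4, 31.5 and 66.2 on day 18. The oviduct libraries measured 11.3, 9.3 and 7.86 CPM on day 0, 48.2 and 49.5 on day 6, 44.7, 49.6 and 44.5 on day 9, 58.3, 130.2, 51.4 and 46.8 on day 12 and 30.7, 14.2 and 10.6 on day 18. Day 6 and day 12 oviduct libraries all exceeded those of day 18, and the day 6 ovary libraries were all below. The difference was -3.64 ± 0.84 (SE), adjusted p = 0.00418 on day 12 and -4.01 ± 0.94 (SE), adjusted p = 0.00404 on day 6.

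F2RL1, the protease-activated receptor cleaved by trypsin-like enzymes, had the lowest ovary ratio of the 20 named genes. In ovary it measured 4.83, 9.49 and 147 CPM on day 0, 2.69, 1.35 and 1.44 on day 6, 1.73, 3.16 and 1.67 on day 9, 4.38, 0.172, 3.85 and 0.355 on day 12, 38, 4.28, 45.8 and 184 on day 15 and 115, 40.9 and 10.9 on day 18. All day 0 libraries were above those of day 9, though by very unequal amounts, and all day 12 libraries were below all day 18 libraries. In oviduct it measured 22.8, 25.6 and 22.4 CPM on day 0, 82.8, 71.8 and 102 on day 9, 61.9, 137, 101 and 82.7 on day 12 and 79.3, 19.4 and 27.2 on day 18. The difference was -5.69 ± 1.41 (SE), adjusted p = 0.00654 on day 12 and -5.45 ± 1.54 (SE), adjusted p = 0.0141 on day 6, the latter lost without the ovary day 18 library numbered 1 (adjusted p = 0.0534).

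SGSM1, a modulator of small GTPases, and ARRDC2, an arrestin-domain protein, were called on both days. SGSM1 measured 5.21, 7.21 and 10.4 CPM in ovary on day 6, 42, 12.9, 9.07 and 13.7 on day 12 and 26.5, 34 and 58.4 on day 18, and 269.8 and 245 CPM in oviduct on day 6, 114, 312, 237 and 256 on day 12 and 104, 24.6 and 62.9 on day 18. Neither tissue's day 6 and day 18 libraries overlapped. Its difference was -2.63 ± 0.69 (SE), adjusted p = 0.00906 on day 12 and -3.85 ± 0.78 (SE), adjusted p = 0.00139 on day 6. ARRDC2 measured 31.3, 20.9, 20.2 and 21.5 CPM in ovary on day 12 and 54.5, 29.6 and 69.5 on day 18, and 55.7, 102, 59.5 and 44.4 CPM in oviduct on day 12 and 27.3, 24.8 and 17.3 on day 18. All oviduct libraries of day 12 were above those of day 18. Its difference was -2.22 ± 0.57 (SE), adjusted p = 0.00843 on day 12 and -2.53 ± 0.64 (SE), adjusted p = 0.0068 on day 6, the latter lost without the oviduct day 6 library numbered 3 (adjusted p = 0.0573).

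DHRS3 reduces retinaldehyde to retinol. It measured 16.2, 18.1 and 21.2 CPM in ovary on day 6, 179.5, 36.7, 24.1 and 9.24 on day 12 and 114, 119.7 and 155 on day 18, and 168 and 203 CPM in oviduct on day 6 and 111, 180.0 and 53.5 on day 18. All day 6 ovary libraries were below those of day 18, and library 1 of day 12 was above them. The difference was -2.85 ± 0.81 (SE), adjusted p = 0.0147 on day 6 and -1.63 ± 0.72 (SE), adjusted p = 0.114 on day 12; the day 12 difference passed without the ovary day 12 library numbered 1 (adjusted p = 0.00278), and the day 6 call was lost without the oviduct day 6 library numbered 3 (adjusted p = 0.051).

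SLC46A2, a membrane transporter, and SAL1, a salivary lipocalin, are near each other in the RefSeq annotation of Sscrofa11.1, with 1 protein-coding gene between them. SLC46A2 measured 9.74, 2.67, 1.71 and 1.69 CPM in ovary on day 12 and 19.2, 12.8 and 23.5 on day 18, and 142, 63.7, 96.9 and 121 CPM in oviduct on day 12 and 73.9, 44.1 and 46.6 on day 18. Its day 12 difference was -2.94 ± 0.93 (SE), adjusted p = 0.0271, and that of day 6, -2.78 ± 1.02 (SE), adjusted p = 0.0541, did not pass. The day 12 call was lost without any 1 of 6 libraries (ovary day 12 numbered 2, 3 or 4, ovary day 18 numbered 3, oviduct day 18 numbered 2 or 3), with adjusted p from 0.0511 to 0.0687, and the day 6 difference passed without the ovary library of day 18 numbered 2, day 12 numbered 1 or day 15 numbered 1 (adjusted p = 0.0452, 0.0419 and 0.0498).

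SAL1 was low and variable in both tissues that chose it. It measured 0.895, 0.317 and 0.379 CPM in ovary on day 6 and 0.446, 29.6 and 17.8 on day 18, and 64.1 and 8.15 CPM in oviduct on day 6 and 0.721, 9.3 and 5.05 on day 18. The day 6 difference was -6.93 ± 2.04 (SE), adjusted p = 0.0179, and was lost without the oviduct day 6 library numbered 2 (adjusted p = 0.154), the one at 64.1 CPM. That of day 12 was -3.19 ± 1.71 (SE), adjusted p = 0.197. In endometrium SAL1 measured 33.2, 50.1 and 63.2 CPM on day 9 and 22869.9, 1489.5 and 4312 on day 12, so that the tissue kept flat by the choice of days held the highest level of this gene among the 3 tissues on day 12.

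APOD, a lipocalin that carries small hydrophobic molecules, had a called difference on day 6, -4.28 ± 1.51 (SE), adjusted p = 0.0453, and not on day 12, -0.98 ± 1.31 (SE), adjusted p = 0.654. Its ovary values were 3.34, 4.52 and 14.5 CPM on day 6, 297, 8.36, 6.08 and 3.37 on day 12 and 45.2, 333 and 123 on day 18, with library 1 of day 12 at the level of day 18. Leaving out any 1 of 9 of the 11 libraries of days 6 and 18 ended the day 6 call (adjusted p from 0.0519 to 0.279), as did the absence of the filter and a fit to only the groups compared (adjusted p = 0.0567 and 0.0652), and leaving out ovary day 12 library 1 made the day 12 difference pass (adjusted p = 0.00564). DAPL1 and the cell adhesion protein N-cadherin, CDH2, had no called difference. DAPL1 measured 34, 0.172, 0.513 and 0.444 CPM in ovary on day 12, and its difference was -3.78 ± 1.70 (SE), adjusted p = 0.121, which passed without library 1 (adjusted p = 0.0015). CDH2 was at -0.50 ± 1.11 (SE), adjusted p = 0.803. For SAL1 as well, the day 12 difference passed without library 1 (adjusted p = 0.0244).

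Some cell type markers also changed over the cycle in ovary or oviduct, not always in opposite directions, and their part in the results was not tested. In ovary the 3 luteal genes found summed to 8397 to 11568 CPM on day 6, while FSHR, INHA and CYP17A1, which mark granulosa and theca cells, summed to 394 to 815 CPM on day 6 and 197 to 10956 CPM on day 0. The leukocyte genes PTPRC, CD68 and CD14 summed to 48.0 to 566 CPM in ovary on day 0, 52.5 to 66.2 CPM on day 6, 54.5 to 70.7 CPM on day 12 and 49.3 to 399 CPM on day 18; PTPRC (CD45, the pan-leukocyte phosphatase) is itself one of the oviduct-up genes. In oviduct they summed to 18.4 to 20.1 CPM on day 0, 41.2 to 42.0 CPM on day 6 and 24.9 to 45.3 CPM on day 12, against 23.0 to 25.9 CPM on day 18. OVGP1 was at 544 to 1971 CPM in ovary on day 0 and 35.5 to 62.0 CPM on day 9. No gene of any marker list was called in ovary by edgeR between days 12 or 6 and day 18, a comparison that the spread of the day 18 libraries and of library 1 of day 12 limits.

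In oviduct, the matrix genes COL3A1, DCN and LUM summed to 4835 to 5829 CPM on day 0 and 1308 to 1519 CPM on day 9, and 2 of the 3 were lower on day 12 than on day 18. The 4 smooth muscle genes ACTA2, MYH11, DES and CNN1 summed to 7572 to 12801 CPM on day 0 and 2430 to 4513 CPM on day 9, with 2 of 4 lower on day 12. They fell in ovary too, from 861 to 2549 CPM on day 0 to 415 to 603 CPM on day 9. The matrix genes in ovary were at 8865 to 11041 CPM on day 0 and 11319 to 17559 CPM on day 9. All 3 cell cycle genes found (TOP2A, CCNB1 and CDK1) and the endothelial gene PECAM1 were lower in oviduct on day 12 than on day 18, and 1 of the steroid receptor genes PGR and ESR1 was lower. Of the luteal genes 1 was higher and 1 lower in oviduct on day 12, and 1 of the granulosa and theca genes was higher. The cilia genes had no call in oviduct. HBB, a blood marker, was at 3.11 to 16.3 CPM in oviduct on day 0 and 11.6 to 15.4 CPM on day 9.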

How the data were processed

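Whole-number counts per Ensembl gene were used as the authors deposited them, for 66 libraries and 25322 genes. Per the study's methods, 13 bases were cut from the start of every read, and the authors aligned poly(A) RNA-seq reads with TopHat2 to the pig genome Sscrofa 10.2 with Ensembl annotation, and the submitters' processing notes name FastQC, featureCounts, Cufflinks, Cuffdiff and edgeR. The library kit marks strand per the labels, but whether counting used it is not given in the sources used here, so overlapping and antisense genes, and close family members, are uncertain. One endometrium day 12 sample was not analysed here.

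Symbols came from a table of gene IDs (11804 of 25322 matched, 123 of 170 members), and the other 47 members are counted but not named. The members, gene lists and comparisons were chosen with earlier results of these data known. CPM used column totals. Tests used edgeR 4.0.16 (TMM, filterByExpr, robust quasi-likelihood F test) in R 4.3.3, with day as a factor in each tissue, or tissue and day in 1 model of ovary and oviduct for the difference, and Benjamini-Hochberg adjustment over all genes tested. An SE is the size of the log2 fold change over the root of F. Alternatives were DESeq2 1.42.0, DESeq2 size factors, no filter, a block for the replicate number, a fit to the compared groups alone, and leaving out each library of the days compared, with 2 ovary libraries also left out where they enter only the shared spread. On simulated counts with 200 genes changed 4-fold, the ovary day 12 test recovered 132, the oviduct test 189, the endometrium test 178 and the difference 116, with 7, 7, 10 and 4 false calls. Columns carry a tissue, a day and a number that does not match the sample titles, so each library is known by its group. No pair of libraries in a group had identical counts, and every pair differed by at least 10.8 times the sampling variance. Named genes were the first 10 with a symbol in each group, ordered by the smaller of their absolute log2 ratios in ovary and oviduct. Marker lists covered luteal, granulosa and theca, ciliated, secretory, stromal, smooth muscle, endothelial, leukocyte, blood and cell cycle genes and steroid receptors.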

Additional observations from a re-analysis of the deposited data

Results flagged for a closer look

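The changes of ovary and oviduct differed, by the test of the difference itself, in 87 members between days 12 and 18 and in 93 between days 6 and 18. With libraries of like day and number treated as pairs, these counts were 59 and 47. Over all 16601 genes, 1909 and 1560 were then called, against 2754 and 3083 without pairs.

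Among the 20 named genes, 100 groups of 4 libraries were examined for a library far from the other 3, where chance flags about 1 in 20 groups, and 11 stood out. Of these, 4 were the same ovary day 12 library, numbered 1: it was lowest for ENPEP at 6.04 CPM and highest for DAPL1 at 34.0 CPM, SAL1 at 8.67 CPM and ARRDC2 at 31.3 CPM. In oviduct, DHRS3 was highest in day 12 library 2 at 300.04 CPM, FBLN2 was highest in day 15 library 4 at 251 CPM, and CDH2 was lowest in day 15 library 3 at 4.78 CPM. In endometrium on day 15, APOD was lowest in library 2 at 38.9 CPM, F2RL1 was lowest in library 1 at 9.74 CPM, and DAPL1 at 0.197 CPM in library 1 and SLC38A11 at 0.0916 CPM in library 3 were highest at levels under 3 counts.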

How the results depend on the processing

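The number of members was 170 as reported, 93 with CPM on TMM effective library sizes (50 ovary-up, 43 oviduct-up), 397 with 0.1 and 84 with 5 added to the mean CPM, 177 with medians, and 149 to 212 with 1 library left out. Counts of calls in the direction of the choice moved by over 1.5 times in the following cases. For ovary, day 12 against day 18 (12 calls, and 458 over all genes), DESeq2 gave 44 (1943 over all genes) and DESeq2 size factors 5 (229). No filter, only the groups compared and the replicate block gave 0 each, where 1, 0 and 0 genes were called over all genes. Members at an unadjusted p under 0.05, in either direction, were then 74, 59 and 66. Over all genes these were 3955 of 20781, 2285 of 14155 and 3300 of 15638. For ovary, day 6 (48, and 1959 over all genes), DESeq2 gave 86 (3391). For oviduct, day 12 (72, and 3505 over all genes), only the groups compared gave 45 (1172). For oviduct, day 6 (15, and 857 over all genes), DESeq2 gave 33 (2152), no filter 9 (447), and only the groups compared 0 (2). In the last, 51 of 168 members and 1986 of 14876 genes had an unadjusted p under 0.05, in either direction. For the difference, only the groups compared gave 33 on day 12 (87), with 633 over all genes against 2754. The replicate block gave 47 on day 6 (93), with 1560 over all genes against 3083. With 1 library left out, the calls ranged from 0 to 85 in ovary and 31 to 83 in oviduct on day 12, 6 to 80 in ovary and 0 to 43 in oviduct on day 6, and 54 to 131 and 57 to 107 for the difference on days 12 and 6. In endometrium they ranged from 19 to 30 on day 12 (41) and 20 to 33 on day 6 (40). Oviduct day 6, with 2 libraries, was left with 1 when either was removed, and its spread was then taken from the other days. Counts over all genes moved in these runs as well, and why the counts moved was not tested.

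The replicate numbers were not taken as pairing the samples, since no source used here ties a number to a gilt. The deviations of same-numbered ovary and oviduct libraries of a day did not correlate in every pair, which does not exclude pairing. The correlation ran from -0.14 to 0.40 and was over 0.1 in 13 of 21 pairs, including all 11 pairs of days 3, 6, 9 and 12, against 4 of 50 pairs of unlike number; 32 of 42 libraries correlated best with their own number, a hint of shared animals. With the replicate block the difference had 59 calls on day 12 (87), and the oviduct 69 and 15 on days 12 and 6. Over all genes, the difference then had 1909 calls on day 12, against 2754 without the block. The oviduct had 3315 and 787 over all genes on days 12 and 6, against 3505 and 857. Calls without the block that did not pass with it were those of ITPR1, AOX1, ARRDC2 and SLC46A2 on day 12 (adjusted p = 0.0966, 0.0855, 0.0557 and 0.0543) and of F2RL1, APOD, DHRS3, ARRDC2 and AOX1 on day 6 (0.0702, 0.0619, 0.0611, 0.0598 and 0.0551). Leaving out ovary day 15 replicate 1, and ovary day 12 replicate 1 from the day 6 comparisons, was chosen after seeing the data. Without the former the ovary had 12 and 51 calls and the difference 90 and 97 on days 12 and 6; without the latter the day 6 counts were 80 and 107. Counts over all genes moved too: 458 genes were called in ovary on day 12, and 3424 without library 1 of that day, where the share called higher went from 78.8% to 55.2%. Of 760 values of single-gene differences under alternatives, 698 kept direction and side of the threshold, 39 lost a call and 20 gained one. Of the 22 called differences, 10 kept the call under every alternative run (OLFM3, GATM and SGSM1 on both days, FBLN2, ENPEP and F2RL1 on day 12, and ST6GALNAC4 on day 6). The sign changed for 3 uncalled values: CDH2 on day 12 became 0.09 without ovary day 18 replicate 2 and 0.32 without oviduct day 12 replicate 2 (range with 1 library left out -1.74 to 0.32), and CNTN1 on day 6 became 0.28 without oviduct day 6 replicate 2 (range -1.64 to 0.28).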

Other observations

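Some members outside the 20 named genes were chosen for description after their values were seen. LSS, lanosterol synthase of the cholesterol pathway, is an ovary-up gene called in both tissues between days 6 and 18. It measured 48.5, 89.8 and 261 CPM in ovary on day 0, 467 and 471 on day 3, 435, 237 and 289 on day 6, 119, 460.1, 476 and 346 on day 12 and 148, 65.1 and 45.3 on day 18. In oviduct it measured 98.1 and 75.2 CPM on day 6, 92.5, 103, 109 and 80.4 on day 12 and 212, 193 and 288 on day 18. The ovary change minus the oviduct change was 3.75 ± 0.68 (SE), adjusted p = 0.000709 between days 12 and 18 and 3.79 ± 0.80 (SE), adjusted p = 0.00186 between days 6 and 18. Its day 0 ovary libraries spread widely, and the day 12 library numbered 1 was again the lowest of its day.

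PTPRC measured 192, 142 and 13.2 CPM in ovary on day 0, 21.2, 12.6 and 9.24 on day 9, 22.2, 15, 18 and 12.3 on day 12 and 74.8, 18.9 and 149 on day 18. In oviduct it measured 8.57, 8.93 and 6.91 CPM on day 0, 18.1, 13.9 and 19.8 on day 9, 30.6, 18.1, 23.5 and 12.9 on day 12 and 12.2, 10.3 and 13.9 on day 18. One of its day 0 ovary libraries, at 13.2 CPM, lay within the day 9 range. The difference was -2.68 ± 0.92 (SE), adjusted p = 0.0433 on day 12 and -3.01 ± 1.03 (SE), adjusted p = 0.0394 on day 6.

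SLC6A4, the serotonin transporter, shows how 1 library can place a gene in the oviduct-up group. It measured 12.1, 77.1 and 1423 CPM in ovary on day 0, 281, 326 and 224 on day 6 and 64.4, 50.7 and 36.1 on day 9, so that its day 0 mean rested on 1 library and its day 6 libraries were all above those of day 9. STC1, stanniocalcin 1, met the rule for the ovary-up group but measured 22.5, 32 and 23.1 CPM in ovary on day 9 and 25.7, 101 and 67.8 on day 18, with 141, 9.56, 13 and 12.9 on day 12.

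Of 115 members found by symbol in the RefSeq annotation of Sscrofa11.1, 4 pairs of oviduct-up genes had at most 2 protein-coding genes between them: GPRASP1 and GPRASP2 with 0, and CITED2 and HECA, SLC46A2 and SAL1, and WDR45 and MAGIX with 1 each.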
